A study of Mus musculus with 10 samples.

Results

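The genes described here are 40 genes of the Wnt signalling pathway, chosen by symbol: its ligands, receptors, inhibitors, transcription factors and feedback targets. Of these, 38 were measured in each deposited table, among 16292 genes listed for ameloblast captures and 16638 for stratum intermedium captures. Wnt3 and Sp5 were listed in neither table, where a gene needed 10 or more in 3 libraries to appear. The samples were 10 RNA-seq libraries from hemi-mandibles of wild-type mice (WT) and of mice with a knockout (KO) of claudin-10, a tight junction protein that forms paracellular ion channels. Ameloblasts, the epithelial cells that secrete and later mature the enamel matrix, and the stratum intermedium, the cell layer behind them, had been cut out separately by laser capture microdissection. Each layer had 2 WT and 3 KO libraries, and no treatment is named. The sources used here do not give age, strain, sex, the kind of KO allele or the region of the tooth that was captured. The prefix of a library name (WT5, WT10, KO1, KO3, KO9) occurs once in each layer and was read as a mouse, although no label says so. A group number from 1 to 3 in the same names is not explained: WT5 and KO3 are in group 1, WT10 and KO9 in group 2. Nothing states that the libraries of a group are separate animals, and if they are not, the p-values reflect technical spread alone.

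Wnt ligands are secreted lipid-modified proteins that bind a frizzled receptor together with the coreceptor Lrp5 or Lrp6. In the canonical branch this stops the destruction complex of Axin and Apc from degrading beta-catenin, which then enters the nucleus and activates target genes with factors of the TCF/LEF family. Other branches act through frizzled receptors without beta-catenin and orient cells within an epithelial sheet. Wnt signalling is needed from the start of tooth development, and mutations of WNT10A and LRP6 in people cause missing teeth.

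Values are normalized counts as deposited, and differences are KO minus WT on the log2(normalized count + 1) scale, which understates the change of genes with low values. Summed values ran from 22135034 to 26856177 per ameloblast library and from 21006977 to 24053340 per stratum intermedium library. Cldn10 was lower in all 3 KO libraries than in both WT libraries of the same layer, at 280.2, 407.8 and 148.7 in KO1, KO3 and KO9 against 600.1 and 751.8 in WT10 and WT5 for ameloblasts, and at 1003, 387.1 and 464.7 against 7257 and 2365 for the stratum intermedium. Transcripts of the gene were thus listed in every KO library, and the sources used here do not name the deleted part. Ameloblast markers made up 2.22% to 9.16% of the summed values in ameloblast captures and 0.129% to 0.95% in stratum intermedium captures, while those of the stratum intermedium and papillary layer (8 genes) made up 0.258% to 0.626% and 0.386% to 0.869%. The 2 sets of captures overlapped in that second list, which includes Cldn10 itself. Markers of odontoblasts and pulp made up 2.59% to 4.41% of the ameloblast and 1.76% to 4.71% of the stratum intermedium captures, so both held transcripts of other tissue, and in bulk samples fewer cells of a type and less RNA per cell cannot be told apart. By Xist and Y-linked genes, KO1 and KO3 were female and the other prefixes male. Both female prefixes were KO, so a fit with sex as a covariate takes its genotype difference from KO9 against the 2 WT libraries. Sex and genotype cannot be told apart for KO1 and KO3.

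WT5 stood apart in a way that bears on every comparison of layers or genotypes. Its 2 layers were the most alike of the 5 prefixes across all genes (r = 0.965, against 0.826 to 0.934 for the others, across genes that are not independent replicates). Over the 38 Wnt genes the median absolute difference between its layers, after subtracting the median of all genes, was 0.24 on the log2 scale, against 0.64 to 1.1 for the other prefixes. Over all genes the same median was 0.29 in WT5 and 0.41 to 0.62 in the other prefixes, so WT5 was lowest there too. After the subtraction WT5 had the smallest absolute difference of the 5 prefixes for 20 of the 38 genes. Before the subtraction its sign was opposite to all other prefixes for 8. Neither count was made over all genes. Genes listed at 0 were most numerous in WT10 (706 and 854 in the 2 tables) and fewest in WT5 (33 and 36). Summed over each list, markers of red blood cells, osteoclasts, osteoblasts, odontoblasts and pulp, and immune cells were also highest in WT5 in both layers. Single genes did not all follow these sums in ameloblast captures. There Col1a1 and Col1a2 of the odontoblast list were highest in WT5, but Dspp (37271) and Dmp1 (20053) were lowest, and Nes and Phex were higher in KO3. Of the osteoblast list only Ibsp was highest in WT5, and of the immune list all but Cd74. Summed markers of fibroblasts and dental mesenchyme, skeletal muscle and endothelium were highest in WT5 in ameloblast captures only. In the stratum intermedium these made up 0.729%, 0.224% and 0.0209% of WT5, against up to 0.777%, 0.498% and 0.0279% in other prefixes. Red blood cell markers made up 1.28% of the ameloblast and 0.911% of the stratum intermedium capture of WT5, against at most 0.244% and 0.258% in the other prefixes. Osteoclast markers made up 0.738% and 0.896%, against at most 0.438% and 0.581%, and osteoblast markers 2.22% and 2.77%, against at most 1.79% and 1.62%. With these as the only WT libraries of each layer, the results below are given with and without each of them where it matters.

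The ligands of the list were led by Wnt6 and its neighbour Wnt10a. Both genes lie on the forward strand of chromosome 1 in GRCm38, Wnt6 (ENSMUSG00000033227) from 74771892 to 74785322 and Wnt10a (ENSMUSG00000026167) from 74791516 to 74804179, with 6193 bases between them. In ameloblast captures Wnt6 stood at 7237 in WT10, 1975 in WT5, 9877 in KO1, 4746 in KO3 and 5055 in KO9. Wnt10a, the ligand whose loss in people leaves teeth missing, stood at 7623, 1461, 8565, 4013 and 5573 in the same order. The 2 genes were thus low together in WT5 and high together in WT10 and KO1. The ratio of Wnt10a to Wnt6 stayed between 0.74 and 1.1 in ameloblast captures and between 0.69 and 0.93 in stratum intermedium captures. In the stratum intermedium, Wnt6 was listed at 1435, 1054, 1802, 1093 and 609.7 and Wnt10a at 989.8, 979.8, 1649, 933.3 and 445.6, with KO1 highest and KO9 lowest for both.

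The other 4 measured ligands of the list had other profiles. Wnt5a, a ligand best known for signalling without beta-catenin, ranged from 415 to 1733 in ameloblast captures and from 1985 to 3386 in the stratum intermedium. Wnt4 ranged from 550 to 1281 and from 976 to 2227. Wnt7b lay between 28.7 and 153 and between 52.6 and 140, and Wnt10b, a canonical ligand of the early tooth germ, between 4.93 and 54.6 and between 1.62 and 50.1. To compare genes of different length, values were divided by the kilobases of annotated exon. Shares were taken among the 6 measured ligands of the list. Per kilobase, Wnt6 and Wnt10a together made up 96.9%, 72.2%, 94.7%, 88.8% and 95.2% of these in the ameloblast captures of WT10, WT5, KO1, KO3 and KO9, and 62.8%, 62.9%, 61.3%, 52.4% and 45.5% in the stratum intermedium captures. Every ameloblast capture lay above every stratum intermedium capture in that share. Wnt4 and Wnt5a took most of the remainder among these 6, with 2.84% to 25.5% in ameloblast captures, the highest being WT5, and 34.9% to 51.2% in the stratum intermedium. Ligands outside the list were not part of these shares. Among them, Wnt3a ranged from 256.6 to 877.6 in ameloblast captures and from 125.1 to 221.5 in the stratum intermedium.

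**Figure D1:**
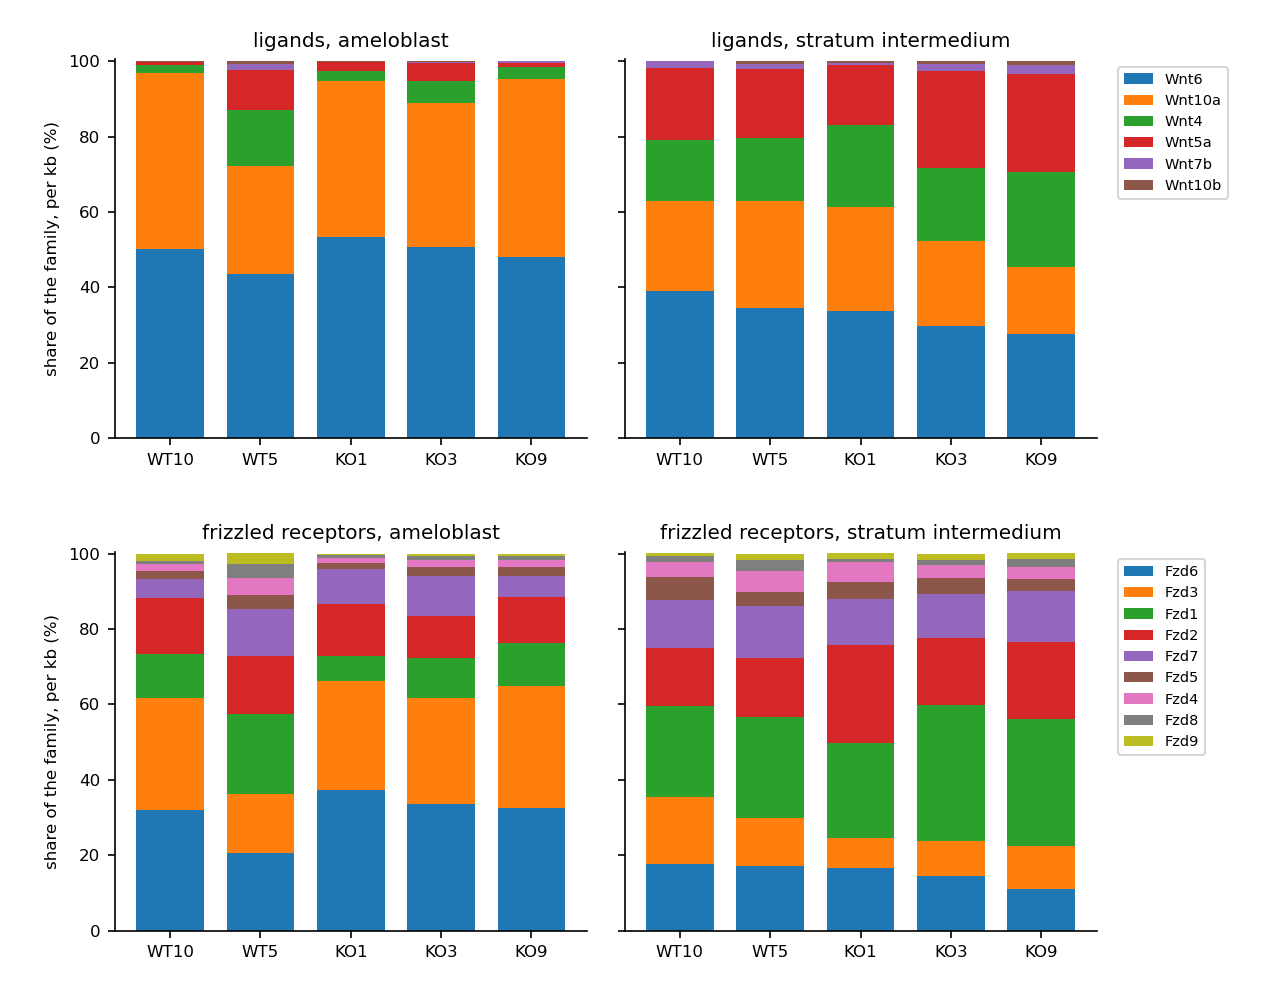
Share of each ligand and each frizzled receptor among the measured members of its family in the list, as percent of normalized counts per kilobase of exon, for the 5 library prefixes (bars) of each layer. Wnt6 and Wnt10a fill 72.2% to 96.9% of the ameloblast bars and 45.5% to 62.9% of the stratum intermedium bars, and Fzd3 and Fzd6 fill 36.3% to 66.1% and 22.3% to 35.4%.

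All 9 frizzled receptors of the list were measured. Fzd3 and Fzd6 are known for orienting hairs and closing the neural tube through the planar cell polarity branch. They made up 61.6%, 36.3%, 66.1%, 61.8% and 65% of the transcripts of these 9 per kilobase in ameloblast captures of WT10, WT5, KO1, KO3 and KO9. The WT5 library lay far below the other 4. In stratum intermedium captures the same pair made up 22.3% to 35.4%, and Fzd1, a receptor for canonical ligands, was the largest single one in WT10, WT5, KO3 and KO9 at 24.1%, 26.7%, 36.2% and 33.7%. In KO1 it stood at 25.1%, just under Fzd2 at 26.1%. Fzd1 ranged from 346 to 898 normalized counts in ameloblasts and from 1320 to 2141 in the stratum intermedium, Fzd2 from 576 to 757 and from 721 to 1197, and Fzd7 from 268 to 709 and from 695 to 823. Levels of Fzd4, the receptor of the vascular ligand norrin, were 98.4 to 304 and 279 to 457. Fzd5 lay between 136 and 267 and between 286 and 565, and Fzd8 between 62.7 and 228 and between 53.2 and 219. Fzd9 was the lowest per kilobase of the receptors in ameloblasts by its median over libraries, and its values are given with the comparison of the layers.

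Of the coreceptors, Lrp6 was the more abundant per kilobase in every library, with 74.8% to 90.2% of the pair in ameloblasts and 82.3% to 92% in the stratum intermedium. Its values ran from 705 to 1705 and from 1420 to 1974, and those of Lrp5 from 132 to 297 and from 122 to 249. Receptors of the R-spondins, which amplify Wnt signals, were led by Lgr4, with 73% to 77.7% of the 3 per kilobase in ameloblasts and 57.9% to 79.7% in the stratum intermedium. Lgr6 ranged from 307 to 468 and from 241 to 617. Lgr5, a marker of epithelial stem cells, was uneven: ameloblast captures held 34.7 in WT10, 128 in WT5, 16.5 in KO1, 115 in KO3 and 69.5 in KO9, and stratum intermedium captures held 2.47, 148, 0, 29.6 and 30.8. Krt15, a keratin on the marker list of the outer enamel epithelium and stem cell region, was also highest in WT5 and KO3 among ameloblast captures, at 11238 and 6380 against 64.8 in WT10, 613 in KO1 and 30.2 in KO9. Whether such cells contributed to Lgr5 was not tested. Znrf3 and Rnf43 encode membrane ubiquitin ligases that remove frizzled receptors. Znrf3 took 82.1% to 95.7% of the pair in ameloblasts and 93.2% to 96.9% in the stratum intermedium, with values of 1295 to 2463 and 1754 to 2173, while Rnf43 lay between 90.3 and 272 and between 47.7 and 115.

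The secreted inhibitor Wif1, which binds Wnt ligands outside the cell, had the highest level per kilobase of the 38 genes in both layers by its median over libraries. It was listed at 15287, 21200, 34024, 19862 and 12717 in ameloblast captures and at 12085, 26407, 18296, 16553 and 15173 in stratum intermedium captures of WT10, WT5, KO1, KO3 and KO9. KO1 was highest in one layer and WT5 in the other, and genotypes overlapped in both. Wif1 made up 66.3% to 83% and 48% to 75% of the 8 secreted or membrane inhibitors per kilobase. Dkk1, which blocks Lrp5 and Lrp6, stood at 1077, 1912, 747, 3019 and 734 in ameloblasts, where WT5 and KO3 were the 2 highest, and at 304, 2033, 252, 594 and 563 in the stratum intermedium, where WT5 alone was high. Secreted frizzled-related proteins bind Wnt ligands as decoys: Sfrp1 ranged from 319 to 757 in ameloblasts and from 1355 to 3477 in the stratum intermedium, and Sfrp2 from 931 to 3774 and from 2650 to 9508. Apcdd1, a membrane inhibitor, lay between 713 and 2116 and between 407 and 1084. Notum, an enzyme that removes the lipid from Wnt ligands, lay between 201 and 459 and between 29.2 and 247.

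Inside the cell, Apc ranged from 1236 to 2106 in ameloblasts and from 1165 to 1502 in the stratum intermedium. Nkd1, a feedback inhibitor that acts on Dishevelled, ranged from 234 to 695 and from 187 to 391. Tcf7l2 was the main TCF/LEF factor per kilobase in every library, at 54.5% to 77.8% of the 4 in ameloblasts and 43.6% to 58.7% in the stratum intermedium, with values of 4915 to 9823 and 4573 to 7922. Lef1, which tooth germs need to develop past the bud stage, was the smallest share of the 4 per kilobase, at 1.95% to 6.41% and 5.47% to 11.8%. Its values were 486.7, 548.1, 189.1, 414.1 and 778 in ameloblast captures and 1509, 1311, 718, 1184 and 1393 in stratum intermedium captures, with KO1 lowest in both layers. Tcf7 ranged from 315 to 540 and from 526 to 803, and Tcf7l1, which mostly represses targets, from 429 to 785 and from 729 to 1350.

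**Figure D2:**
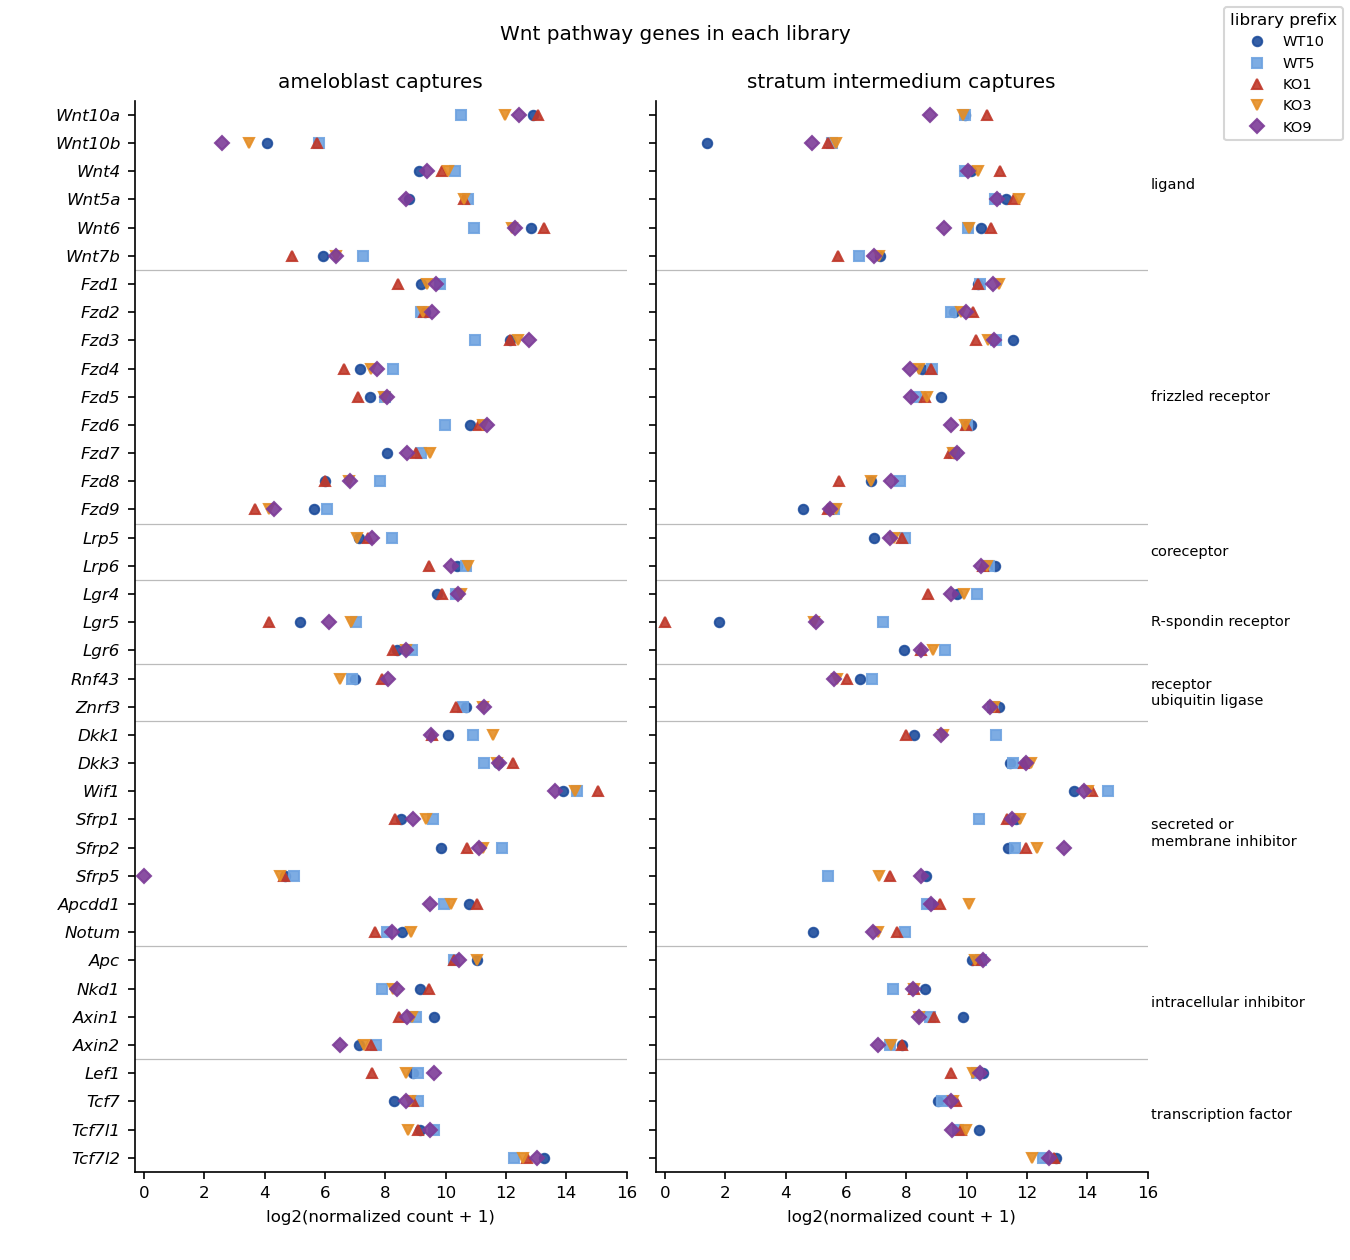
Level of the 38 measured genes in each of the 10 libraries, on the log2(normalized count + 1) scale, grouped by role, with the 5 library prefixes as symbols. Wif1 and Tcf7l2 lie at the top of the scale in both layers and Wnt10b, Lgr5 and Fzd9 near the bottom, and WT5 (light squares) lies below the other prefixes for Wnt6 and Wnt10a in ameloblast captures.

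Axin2, Lef1 and Dkk1 are well-known targets as well as parts of the pathway, and their promoters are shown because their transcripts are the usual reading of canonical output. The sequences are the 250 bases before a transcription start in RefSeq (GRCm38.p6), 5′ to 3′ on the gene's strand, with matches to the TCF/LEF core CTTTGA or its reverse TCAAAG in capitals. They are chr11:108920099-108920348 on the forward strand for Axin2, chr19:30549497-30549746 on the reverse strand for Dkk1 and chr3:131156044-131156293 on the forward strand for an internal start of Lef1, the only one of the 4 Lef1 windows in RefSeq with a match. The windows at its 3 upstream starts hold none.
Axin2: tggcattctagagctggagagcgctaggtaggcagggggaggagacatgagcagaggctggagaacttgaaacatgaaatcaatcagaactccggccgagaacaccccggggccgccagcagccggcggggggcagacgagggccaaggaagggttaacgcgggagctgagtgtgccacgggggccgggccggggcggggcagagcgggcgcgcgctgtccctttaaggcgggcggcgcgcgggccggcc
Dkk1: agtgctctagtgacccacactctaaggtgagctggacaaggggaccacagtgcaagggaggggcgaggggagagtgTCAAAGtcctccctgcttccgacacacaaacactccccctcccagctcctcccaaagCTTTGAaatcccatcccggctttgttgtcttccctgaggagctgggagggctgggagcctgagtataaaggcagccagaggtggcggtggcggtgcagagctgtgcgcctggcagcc
Lef1: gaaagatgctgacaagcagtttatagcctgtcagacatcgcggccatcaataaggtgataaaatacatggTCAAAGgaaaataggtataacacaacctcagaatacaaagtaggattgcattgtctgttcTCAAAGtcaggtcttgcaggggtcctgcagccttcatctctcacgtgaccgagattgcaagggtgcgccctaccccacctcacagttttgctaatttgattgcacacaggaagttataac
The Dkk1 window holds matches that begin at -174 and -117 from the start, the Lef1 window at -180 and -120, and the Axin2 window holds none. In windows that reach from 250 bases before to 50 after a start, 4 of the 23 listed genes with an entry held a match in at least 1 window (17.4%), against 18.2% of all 27025 genes, and the 4 were Sp5, Lef1, Fzd1 and Dkk1. Axin2, the most widely used readout of canonical Wnt signalling, stood at 138, 208, 183, 156 and 89.2 in ameloblast captures of WT10, WT5, KO1, KO3 and KO9 and at 229, 175, 229, 181 and 131 in stratum intermedium captures. KO9 was lowest in both layers, and the genotypes overlapped. Its KO minus WT difference was -0.31 (95% interval -1.47 to 0.86) in ameloblasts and -0.18 (-1.20 to 0.84) in the stratum intermedium. Both intervals hold 0 and also values below -1, so neither was excluded. Lef1 differed by -0.39 (-1.74 to 0.96) and -0.41 (-1.15 to 0.33), and Dkk1 by -0.28 (-1.80 to 1.25) and -0.84 (-2.67 to 0.98).

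Levels in the 2 layers were compared within each prefix as a description, with no test, since the tables were normalized separately. The ligands Wnt6 and Wnt10a were higher in ameloblast captures of all 5 prefixes, by 0.91 to 3.05 and 0.58 to 3.64 on the log2 scale, with median folds of 5.04 and 5.19 and the smallest difference in WT5. Fzd3 (0.01 to 1.86), Rnf43 (0.03 to 2.49) and Apcdd1 (0.10 to 1.97) were also on the ameloblast side in all 5. These 5 of the 38 compare with 5.93% of the 15567 genes measured in both layers. On the stratum intermedium side in all 5 prefixes were 11 of the 38, against 17.8% of all genes: the decoys Sfrp1 and Sfrp5, the ligand Wnt5a, the receptors Fzd1, Fzd2, Fzd4, Fzd5 and Fzd7, and the factors Lef1, Tcf7 and Tcf7l1. Sfrp1 was the higher there by a median fold of 5.97, Lef1 by 2.86, Fzd1 by 2.32 and Wnt5a by 2.15. Sfrp5 held 22 to 30.7 in 4 ameloblast captures and was listed at 0 in KO9, against 41.7 to 401 in the stratum intermedium.

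The choice of centre moved these counts. The median of all genes lay between -0.108 and -0.173 for ameloblast minus stratum intermedium, and with it subtracted the counts became 10 of the 38 on the ameloblast side (11.1% of all genes) and 7 on the stratum intermedium side (9.96%). Wnt6, Wnt10a, Fzd3, Rnf43 and Apcdd1 were on the ameloblast side both ways, and Sfrp1, Sfrp5, Wnt5a, Lef1, Fzd1, Fzd2 and Fzd4 on the stratum intermedium side both ways. Without WT5 and with no median subtracted, 9 of the 38 were on the ameloblast side (12.9% of all genes) and 15 on the other (24.5%). Both shares of the 38 genes exceeded those of all genes there, and no test was made of either.

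**Figure D3:**
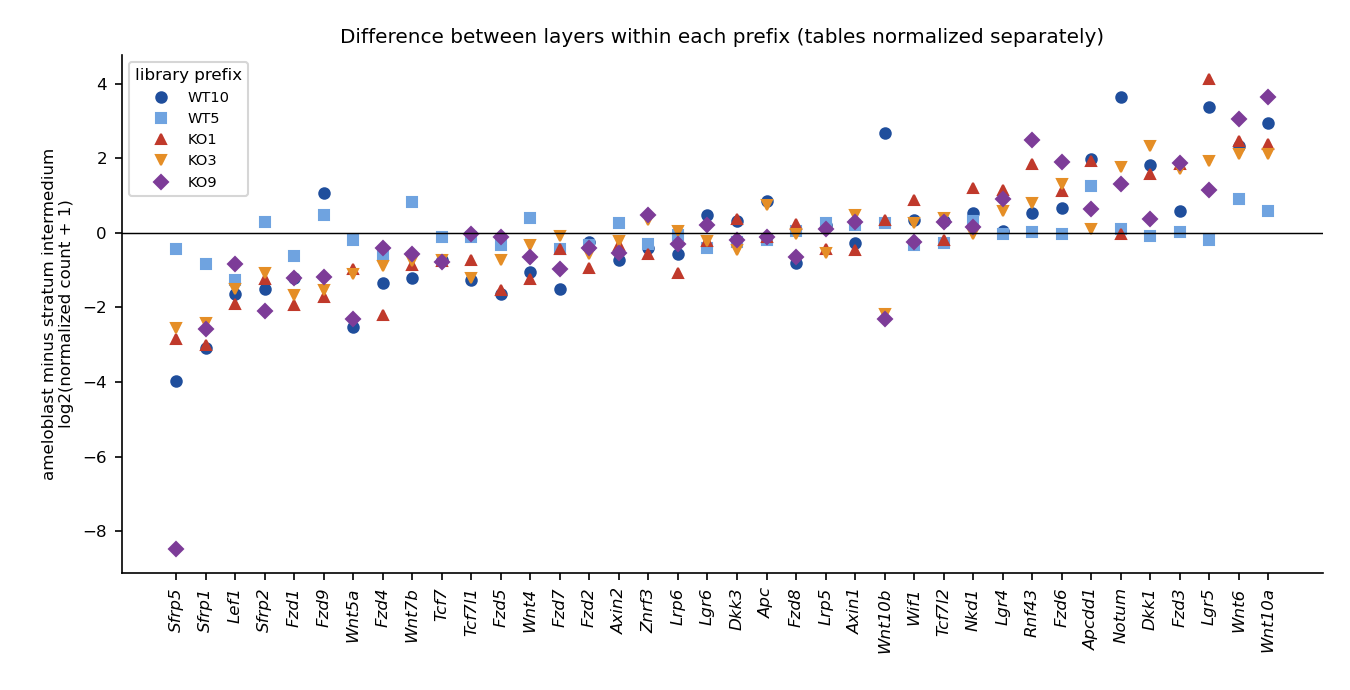
Ameloblast minus stratum intermedium level of each of the 38 genes within each of the 5 library prefixes, on the log2(normalized count + 1) scale, ordered by the median. Wnt6 and Wnt10a lie above 0 and Sfrp1, Sfrp5 and Lef1 below 0 in all prefixes, WT5 (light squares) lies nearest 0 for many genes, and the Sfrp5 point of KO9 at -8.48 comes from an ameloblast value of 0.

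In ameloblast captures, the planar polarity receptors Fzd6 and Fzd3 were higher in all KO libraries than in both WT libraries, and Fzd9 and the scaffold Axin1 were lower. None passed the test over all genes. In limma, 0 of the 38 genes had an adjusted p under 0.05, with 0.989 the smallest, as 0 of all 16212 genes tested did. At an unadjusted p under 0.05 stood 2 of the 38, Fzd6 and Fzd3, against 3.07% of all genes, or 498. Both were higher in KO, as 2.25% of all genes were at that threshold, and 0 of the 38 were lower, against 0.82%. By the sign of the difference 17 of the 38 were higher in KO and 21 lower, against 53.0% of all genes higher, with a median of -0.07, against 0.04 over all genes. The genotypes were without overlap in 5 of the 38 (13.2%), against 18.4% of all genes. For 2 of these (Fzd3 and Fzd6) the KO libraries were above, against 9.09%, and for 3 (Fzd9, Axin1 and Sfrp5) below, against 9.26%. These shares lay near those of all genes.

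Fzd6 (ENSMUSG00000022297, chromosome 15, 39006034 to 39038188) was listed at 1811 in WT10 and 1012 in WT5, and at 2210, 2424 and 2635 in KO1, KO3 and KO9. The KO libraries lay close together and above both WT libraries, with means of 2423 ± 212 (SD, n = 3) and, in WT, 1411 ± 565 (SD, n = 2). The difference was 0.84 on the log2 scale (SE 0.30, unadjusted p = 0.026 in limma). Fzd3 (ENSMUSG00000007989, chromosome 14, 65192449 to 65262463) was listed at 4467 and 2030 in WT and at 4543, 5409 and 7026 in KO, so that KO1 and WT10 were nearly level and WT5 was far below. Its difference was 0.89 (SE 0.37, unadjusted p = 0.0497 in limma). Without WT5 the differences were 0.42 (unadjusted p = 0.152 in limma) for Fzd6 and 0.32 (0.345) for Fzd3, and without WT10 they were 1.26 and 1.46. Neither gene was under 0.05 without KO3 (0.0699 and 0.0944) or without KO9 (0.0748 and 0.141). With sex as a covariate, which sets KO9 alone against WT, the differences were 0.96 and 1.22. Within library group 1 (KO3 and WT5) and group 2 (KO9 and WT10) of the library names, Fzd6 differed by 1.26 and 0.54 and Fzd3 by 1.41 and 0.65. Markers of the stratum intermedium and papillary layer moved with these genes: they made up 0.258% and 0.393% of the WT and 0.526% to 0.626% of the KO ameloblast captures. Of the 8, 5 were higher in all KO than in both WT libraries, 1 was lower, the targeted gene Cldn10, and none was listed at 0. Red blood cell markers moved the other way, at 0.244% and 1.28% in WT and 0.0814% to 0.144% in KO, with 5 of 5 lower in all KO than in both WT libraries and none listed at 0. The part of either list in the result was not tested. Fzd3 itself was lower in stratum intermedium than in ameloblast captures of every prefix, by only 0.01 in WT5, and Fzd6 of every prefix but WT5.

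Fzd9 (ENSMUSG00000049551, chromosome 5, 135248938 to 135251230) was a low-level receptor, with 48.3 and 66.2 in WT10 and WT5 and 11.9, 16.7 and 18.6 in KO1, KO3 and KO9. The groups lay well apart, at 57.2 ± 12.7 (SD, n = 2) and 15.8 ± 3.48 (SD, n = 3). The difference was -1.80 (SE 0.79, unadjusted p = 0.0557 in limma). Axin1, the scaffold of the destruction complex, was listed at 790, 513 and, in KO, 354, 477 and 419. Its difference was -0.62 (SE 0.32, unadjusted p = 0.0953 in limma), with WT10 much higher than the other 4 libraries, and it was -0.31 without WT10 and -0.93 without WT5. Dkk3, a divergent relative of the Dkk inhibitors, was listed at 3411 and 2491 in WT and at 4859, 3310 and 3504 in KO, with overlap. It differed by 0.40 (SE 0.27, unadjusted p = 0.185 in limma).

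The high ligands overlapped between genotypes in the ameloblast captures. Wnt6 differed by 0.71 (SE 0.58, 95% interval -0.65 to 2.07, unadjusted p = 0.257 in limma) and Wnt10a by 0.79 (SE 0.67, -0.80 to 2.38, unadjusted p = 0.279). Both differences rested on WT5, in which both genes were lowest: without it they were -0.23 and -0.40. They were also below 0 within library group 2, at -0.52 and -0.45. Sfrp5 was listed at 24.7 and 30.7 in WT and at 23.8, 22 and 0 in KO, and its difference of -1.78 (SE 1.65, unadjusted p = 0.316 in limma) rested on the KO9 value of 0, and was -0.26 without KO9. With sex as a covariate, where KO9 is the only male KO library, it was -4.84. The other 30 measured genes overlapped between the groups and had unadjusted p-values above those 8.

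In stratum intermedium captures, the secreted proteins Dkk3 and Sfrp2 were higher in all KO libraries than in both WT libraries, and Fzd3 was lower. In limma, 0 of the 38 genes had an adjusted p under 0.05, with 1 the smallest, and 0 of all 16543 genes tested did, with 0.404 the smallest. At an unadjusted p under 0.05 stood 2 of the 38, Dkk3 and Sfrp2, against 2.06% of all genes, or 340. Both were higher in KO, as 1.27% of all genes were, and 0 of the 38 were lower, against 0.786%. Again 17 of the 38 were higher in KO and 21 lower, against 51.9% of all genes higher, with a median of -0.11, against 0.02 over all genes. The genotypes were without overlap in 9 of the 38 (23.7%), against 15.2% of all genes. The KO libraries were above for 5 (Dkk3, Sfrp2, Fzd2, Tcf7 and Apcdd1), against 7.76%, and below for 4 (Fzd3, Fzd6, Rnf43 and Lrp6), against 7.44%. Of the 8 secreted or membrane inhibitors, 6 had a difference above 0, with a median of 0.56, and 2 below, Dkk1 and Wif1. In ameloblast captures 3 of the same 8 were above 0 and 5 below, with a median of -0.09. No test was made of the group.

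**Figure D4:**
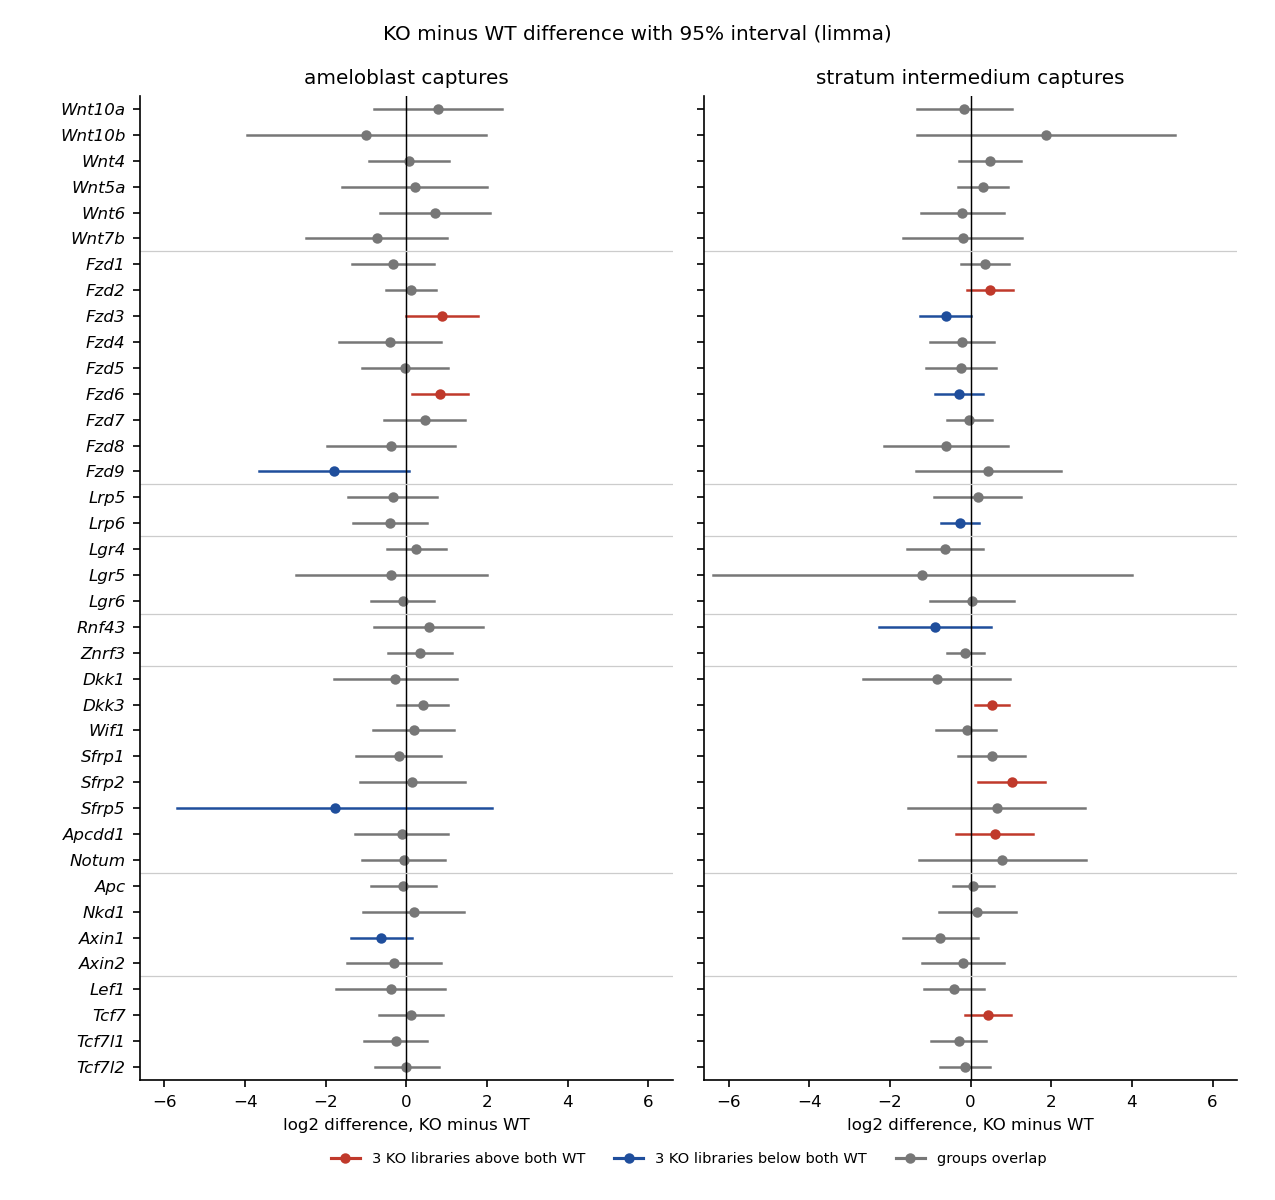
KO minus WT difference of each gene on the log2(normalized count + 1) scale with its 95% interval from limma, by layer and role, coloured by whether the 3 KO and 2 WT libraries overlap. In ameloblasts 2 genes lie above without overlap and 3 below, and in the stratum intermedium 5 above and 4 below, and most intervals cross 0.

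Dkk3 (ENSMUSG00000030772, chromosome 7, 112116017 to 112159057) was listed at 2750 and 2953 in WT and at 3795, 4513 and 4004 in KO1, KO3 and KO9. Both groups were tight, at 2851 ± 143 (SD, n = 2) and 4104 ± 369 (SD, n = 3), and the difference was 0.52 (SE 0.18, 95% interval 0.10 to 0.94, unadjusted p = 0.0218 in limma). It was 0.49 with sex as a covariate, which sets KO9 alone against WT, and 0.47 without WT10, which leaves WT5 as the only WT library. Both are given by size only, not as results that stayed under 0.05. The unadjusted p of Dkk3 in limma was 0.0938 without KO3, 0.055 without KO9 and 0.0992 with the replicate block. Sfrp2 (ENSMUSG00000027996, chromosome 3, 83766321 to 83774316) was listed at 2650 and 3095 in WT and at 4008, 5109 and 9508 in KO. All KO libraries were higher, and KO9 was by far the highest. The difference was 1.02 (SE 0.35, 95% interval 0.19 to 1.85, unadjusted p = 0.0227 in limma), and without KO9 it was 0.66. Without WT10 it was 0.91 (unadjusted p = 0.0976 in limma). With sex as a covariate, which sets KO9 alone against WT, it was 1.73, and within library groups 1 and 2 it was 0.72 and 1.84. Fibroblast and dental mesenchyme markers, 7 genes, made up 0.393% and 0.729% of the WT10 and WT5 and 0.666% to 0.777% of the KO captures of the stratum intermedium, and 6 of the 7 were higher in KO by the sign of the difference, with none listed at 0. Their part in the Sfrp2 and Dkk3 values was not tested.

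Fzd3 was listed at 2992 and 2019 in WT and at 1268, 1666 and 1934 in KO, so that KO9 and WT5 nearly touched. The difference was -0.62 (SE 0.27, unadjusted p = 0.0553 in limma) and was -0.34 without WT10. Fzd2, a receptor that takes both canonical ligands and Wnt5a, was listed at 757 and 721 in WT and at 1197, 909 and 1005 in KO, a difference of 0.48 (SE 0.24, unadjusted p = 0.0818 in limma). Tcf7, a TCF/LEF factor and itself a target, was listed at 526 and 585 in WT and at 803, 748 and 713 in KO, a difference of 0.44 (SE 0.24, unadjusted p = 0.109 in limma). Both sets of KO values lay above WT with a gap wider than the spread within WT.

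Axin1 was listed at 951 in WT10 and 443 in WT5 and at 484, 345 and 346 in KO, with overlap. Its difference of -0.75 (SE 0.40, unadjusted p = 0.1 in limma) was -0.20 without WT10 and -1.30 without WT5. Lgr4, the main R-spondin receptor here, was listed at 817 and 1314 in WT and at 426, 973 and 719 in KO, a difference of -0.63 (SE 0.40, unadjusted p = 0.157 in limma). It was -0.31 without KO1, the lowest library. Rnf43, a target as well as a brake on the receptors, was listed at 87.7 and 115 in WT and at 64.5, 51.2 and 47.7 in KO, lower in all 3, with a difference of -0.88 (SE 0.59, unadjusted p = 0.175 in limma). The other 30 measured genes had unadjusted p-values above those 8.

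Whether the KO minus WT difference itself differed between layers was tested within prefixes, on the ameloblast minus stratum intermedium value of each. In limma, the smallest adjusted p among the 38 was 0.864, and 0 of them and 0 of all 15567 genes were under 0.05. At an unadjusted p under 0.05 stood 4 of the 38, or 10.5%, against 4.8% of all genes, or 747. Of the 4, 2 (Fzd3 and Lgr4) had a difference above 0, against 2.57% of all genes, and 2 (Fzd9 and Wnt10b) below, against 2.23%, and 18 of the 38 were above 0 by sign, against 50.4%. Fzd9 had the smallest p of these: its ameloblast minus stratum intermedium value was 1.06 and 0.48 in WT10 and WT5 and -1.73, -1.52 and -1.18 in KO1, KO3 and KO9. Both WT prefixes were thus on the ameloblast side and all KO prefixes on the stratum intermedium side. In the stratum intermedium Fzd9 was listed at 22.7 and 47.2 in WT and 41.8, 49.9 and 43.4 in KO, so the KO libraries were not low there. The difference between layers was -2.24 (SE 0.36, 95% interval -3.17 to -1.32, unadjusted p = 0.001417 in limma), and between -1.95 and -2.53 with each prefix left out. With sex as a covariate, which sets KO9 alone against WT, it was -1.95.

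Fzd3 differed between the layers by 0.58 and 0.01 in WT and by 1.84, 1.70 and 1.86 in KO, all KO prefixes above both WT prefixes. That difference was 1.51 (SE 0.43, unadjusted p = 0.017 in limma), and it was 1.22 without WT5 and 1.79 without WT10. Each of these fits leaves a single WT prefix, so only the size is given and not whether p stayed under 0.05. With sex as a covariate, which sets KO9 alone against WT, the Fzd3 difference was 1.57, again by size only. Lgr4 differed between the layers by 0.04 and -0.03 in WT and by 1.15, 0.58 and 0.91 in KO, a difference of 0.88 (SE 0.32, unadjusted p = 0.04082 in limma). Its unadjusted p in limma was above 0.05 without KO1, without KO3 and without KO9. No p is given for it without WT5 or WT10, for the same reason as for Fzd3. Wnt10b differed between the layers by 2.68 and 0.25 in WT and by 0.33, -2.18 and -2.31 in KO, with WT5 and KO1 level, and its levels were among the lowest of the list. The difference of -2.85 (SE 1.12, unadjusted p = 0.04998 in limma) ranged from -1.64 without WT10 to -4.06 without WT5. Its unadjusted p in limma was above 0.05 without KO3 (0.116) or KO9 (0.113). The same held with a pseudocount of 0.5 or 8, no filter, quantile normalization or no replicate block. Fzd6 and Rnf43, at 1.12 and 1.44, had the next smallest p-values, 0.05716 and 0.07036 in limma. Fzd3, Fzd6, Rnf43 and Lgr4 thus all had larger layer differences in the mean of the KO prefixes (1.80, 1.44, 1.71 and 0.88) than in that of the WT prefixes (0.29, 0.32, 0.28 and 0.01), and the WT means include WT5, whose layers were the most alike.

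**Figure D5:**
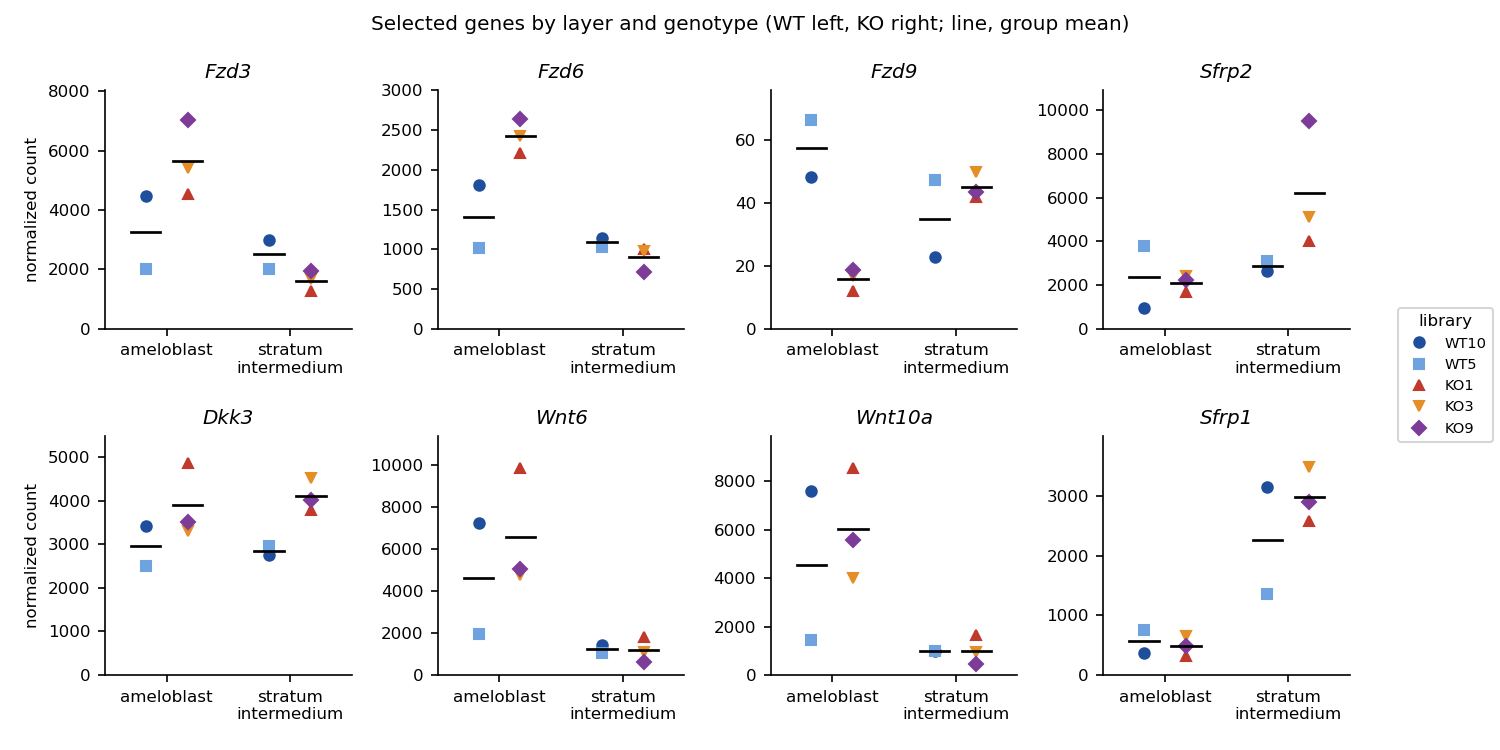
Normalized counts of 8 genes in every library, by layer, with WT libraries left and KO libraries right in each layer and a line at the group mean. Fzd3 and Fzd6 are higher in KO ameloblast captures and lower in KO stratum intermedium captures with no overlap, Fzd9 is lower in KO ameloblast captures and overlaps between genotypes in the stratum intermedium, and Wnt6 and Wnt10a overlap between genotypes with WT5 lowest of the ameloblast captures.

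A further 63 genes of the pathway, from other ligands and R-spondins to Dishevelled proteins, beta-catenin and its cofactors, were counted beside the 38. In ameloblast captures 59 of them were measured, 37 higher and 22 lower in KO by sign, against 53.0% of all genes higher, with a median difference of 0.15. In the stratum intermedium 58 were measured, 24 higher and 34 lower, against 51.9% of all genes higher, with a median of -0.06. In limma, 0 of them had an unadjusted p under 0.05 in either layer or in the difference between layers, and 0 an adjusted p under 0.05. The genotypes were without overlap in 3 (5.08%) in ameloblasts, against 18.4% of all genes, and in 11 (19%) in the stratum intermedium, against 15.2%. Wnt8a, Wnt9b, Dkk4 and Kremen2 were listed in neither table, and Wnt1 was not listed for the stratum intermedium.

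Reads of some of these genes may be shared with other genes. Exons of 9 of the 40 overlap those of a gene on the opposite strand, among them Fzd6, Sfrp2, Axin2, Lef1 and Wnt5a. The libraries were made with a stranded kit, per the labels, but the sources used here do not say whether the counting used strand, so reads of those pairs may not be separated. For the median gene of the 38, the 95% interval reached 1.06 on the log2 scale to either side of the difference in ameloblasts and 0.86 in the other layer, so smaller changes could not be told from 0 with 2 WT and 3 KO libraries. These intervals are not adjusted for the number of genes, and larger changes also failed to pass after adjustment. Cldn10, the targeted gene, differed by -1.38 in ameloblasts (adjusted p = 0.989 in limma). In the stratum intermedium it differed by -2.87 (unadjusted p = 0.0012 in limma) and did not pass after adjustment either.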

How the data were processed

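The 40 genes and the other lists were chosen with earlier results of these data known. Values were deposited by the authors as normalized counts per gene (a signal on a linear scale), in 1 table per layer that the file names call a DESeq2 normalized matrix with outliers left out, without saying which. The submitters' processing notes name the build GRCm38 and, with no settings, featureCounts, DESeq, Picard 2.8.1, STAR 2.5.2b and FastQC, and the file names give Ensembl release 101. Whole reads could not be recovered from the values, so the depth is unknown and no count model or counting interval was used. Columns were matched to samples by library name, and 0 were left unused.

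Within each table, log2(normalized count + 1) was compared between KO and WT by limma's two-sided test with a trended variance (limma 3.58.1, R 4.3.3). Genes whose mean reached 10 were tested (16212 for ameloblasts, 16543 for the stratum intermedium), with Benjamini-Hochberg adjustment over all of them. The difference between layers was fitted on the ameloblast minus stratum intermedium value of each prefix, over 15567 genes. Deviations from the group mean correlated between layers of the same prefix at r = 0.201 to 0.311, and each prefix was used as a pair. Different prefixes reached r = 0.19 across layers (WT5 in ameloblasts with KO3 in the stratum intermedium). With 2 WT libraries per layer, their deviations mirror each other by construction. These correlations cannot show that a prefix is a mouse. Values in every library, with the standard error and p, are given for the 8 genes with the smallest unadjusted p in each layer and the 4 with the smallest p of the difference between layers, and others by levels and counts. Positions and exon lengths came from GENCODE for GRCm38 and promoter windows from RefSeq. The alternatives changed the pseudocount (0.5 or 8), the filter (none, or a mean of 50 or more), the scaling (quantiles, or median ratios), the variance model (robust, or library weights with statmod 1.5.0), the terms (replicate number, library group or sex), the threshold (unadjusted p under 0.01) or the libraries (each library or prefix left out). Plots used Python 3.11.15 and matplotlib 3.10.9.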

Additional observations from a re-analysis of the deposited data

Results flagged for a closer look

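The KO minus WT difference of 4 of the 38 genes differed between the layers at an unadjusted p under 0.05 in limma, and none of the 4 passed after adjustment over all genes (adjusted p = 0.864 for each). Fzd9 had a difference between layers of -2.24 (unadjusted p = 0.001417), with ameloblast minus stratum intermedium values above 0 in both WT prefixes and below 0 in all 3 KO prefixes. Fzd3 had 1.51 (unadjusted p = 0.017), Lgr4 0.88 (unadjusted p = 0.04082) and Wnt10b -2.85 (unadjusted p = 0.04998). For Fzd3 and Lgr4 all 3 KO prefixes were above both WT prefixes, and for Wnt10b KO1 lay at 0.33, above WT5 at 0.25. The share of all genes at that unadjusted threshold was 4.8%.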

How the results depend on the processing

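No gene of either table passed an adjusted p of 0.05 in limma under any alternative run, so the values below concern unadjusted p-values and signs. Of the 38 genes, 2 had an unadjusted p under 0.05 in ameloblasts, Fzd6 and Fzd3. With a pseudocount of 0.5 or rescaling by median ratios 1 did, Fzd6. With sex as a covariate the fit sets KO9 alone against WT, so no count is given for it. At a threshold of 0.01 0 did, and 0 to 5 did with each library left out. With the replicate block 2 did, Dkk1 and Wnt6. In the stratum intermedium the 2, Dkk3 and Sfrp2, became 1 with the replicate block, which was Fzd3, 0 at a threshold of 0.01 and 1 to 7 with each library left out. For the difference between layers, the 4 became 2 without KO9 (Fzd9 and Fzd3). With a pseudocount of 0.5 or 8, no filter or quantile normalization they became 3 (Fzd3, Fzd9 and Lgr4). With no replicate block, which ignores the prefix pairs, 3 had an unadjusted p under 0.05 (Fzd3, Fzd6 and Fzd9). Replicate numbers did not pair libraries within a layer, as deviations of WT and KO libraries of the same number correlated at -0.215 to 0.081. Genes on the ameloblast side in all prefixes numbered 5, against 10 with the median subtracted and 9 without WT5, and those on the stratum intermedium side numbered 11, against 7 with the median subtracted. The differences of both high ligands in ameloblasts changed sign: Wnt6 was -0.23 without WT replicate 2 (WT5), 1.65 without WT replicate 1 (WT10) and -0.52 within library group 2, and Wnt10a was -0.40, 1.98 and -0.45. The cause was not tested. Of the values for the genes named with full statistics, 138 of 142 kept their sign in ameloblasts, 144 of 144 in the stratum intermedium and 46 of 46 for the difference between layers. Fzd9, Wnt10b and Sfrp5 gave no ameloblast value with a mean of at least 50. Over all alternatives, 11 of the 38 genes kept their sign in ameloblasts and 16 in the stratum intermedium.

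Limits are the 2 WT libraries per layer, which differ from each other, the sexes (1 of 3 KO prefixes and both WT prefixes were male), the unknown depth, and captures that hold other tissue.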
